A study of Homo sapiens with 10 samples.

Results

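The genes described here encode subunits of RNA polymerase II: POLR2A, POLR2B, POLR2C, POLR2D, POLR2E, POLR2G, POLR2H, POLR2I, POLR2K and POLR2L. They were chosen by name, as 10 of the 59204 human genes listed, and all 10 passed the filter on low counts in labelled and in total RNA. The cells were K562, an established human chronic myeloid leukemia line. Each of the 5 groups held 2 libraries: the solvent DMSO alone, actinomycin D at 1 µg/mL, AZ-5576 at 1 µM, JQ1 at 1 µM and A-485 at 1 µM, each for 2 hours. All groups, DMSO included, also received 100 µM 4-thiouridine for the final 1 hour, so no library is free of the label. Actinomycin D intercalates into DNA and halts elongating polymerases, AZ-5576 inhibits the pause-release kinase CDK9, JQ1 blocks the bromodomains of BET proteins, and A-485 inhibits the acetyltransferase domain of CBP and p300. By SLAM-seq, reads with T-to-C conversions count RNA made during labelling (labelled RNA), and all reads together count the mRNA pool (total RNA). The labels do not say whether the libraries of a group came from separate cultures, so the p-values measure the spread between these libraries, which may be technical.

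RNA polymerase II transcribes protein-coding genes. POLR2A and POLR2B encode its largest subunits, which together form the active site, and POLR2A carries the repeated C-terminal tail that is phosphorylated as transcription proceeds. POLR2C and POLR2I belong to this polymerase alone, as do POLR2D and POLR2G, which form a stalk that can come off the core. POLR2E, POLR2H, POLR2K and POLR2L encode small subunits that RNA polymerases I and III also contain. The complex is assembled in the cytoplasm from separately made proteins, and the synthesis of one subunit mRNA need not follow that of another. The comparison of POLR2A with the other 9 genes asks whether their mRNAs moved together when transcription was disturbed.

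The promoters of 3 subunit genes are shown because their labelled RNA went different ways with JQ1: POLR2A rose, POLR2E fell and POLR2L did not pass the test. Each line gives the 250 bases before the start site on the gene's strand, from RefSeq on GRCh38.p14, with every GGGCGG (the GC box bound by SP1-type factors) in capitals. The windows are chr17:7484116-7484365 on the plus strand, chr19:1095376-1095625 on the minus strand and chr11:842530-842779 on the minus strand.
POLR2A: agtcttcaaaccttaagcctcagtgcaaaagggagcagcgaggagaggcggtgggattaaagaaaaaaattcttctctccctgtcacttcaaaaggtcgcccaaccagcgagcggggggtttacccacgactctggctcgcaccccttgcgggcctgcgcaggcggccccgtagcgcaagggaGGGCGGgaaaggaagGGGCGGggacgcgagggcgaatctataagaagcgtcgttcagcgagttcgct
POLR2E: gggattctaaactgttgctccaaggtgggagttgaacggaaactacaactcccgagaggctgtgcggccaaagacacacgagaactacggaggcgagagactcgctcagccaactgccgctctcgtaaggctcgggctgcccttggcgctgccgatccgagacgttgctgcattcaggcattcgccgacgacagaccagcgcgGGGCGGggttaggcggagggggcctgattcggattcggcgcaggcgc
POLR2L: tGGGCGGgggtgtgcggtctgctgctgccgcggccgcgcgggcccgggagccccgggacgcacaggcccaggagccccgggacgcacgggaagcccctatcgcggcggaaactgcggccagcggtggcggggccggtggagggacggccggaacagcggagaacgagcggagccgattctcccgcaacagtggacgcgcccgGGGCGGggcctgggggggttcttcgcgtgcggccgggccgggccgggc
The GC box nearest the start lay 52 to 47 bases before it in POLR2A, 47 to 42 bases before it in POLR2E and 48 to 43 bases before it in POLR2L. RefSeq windows were matched for 7 of the 10 genes (not POLR2G, POLR2I and POLR2K), and 6 of these 7 held GGGCGG on either strand (all but POLR2C), against 42.6% of 35116 promoter windows of 250 bases. Of the other motifs searched on both strands, CCGGAAG (an ETS motif) was found in POLR2C and ATGGCGG (YY1-like) in POLR2H. CCGGAAG occurs in 8.52% and ATGGCGG in 2.88% of all windows. Not found in the 7 genes were TATAAA (the TATA box, in 10.7% of all windows), CCAAT (the CCAAT box, in 32.0%), CACGTG (an E-box, in 6.35%), AGATAA (an erythroid factor motif, in 9.17%) and TGACGT (like a cyclic AMP response element, in 7.10%). The motifs were chosen after the values were seen, and a match is a stretch of letters and not a measured binding site.

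The libraries held between 14916671 and 17918971 human counts, spike-in counts from 1817677 to 2212752 and labelled counts from 1410 with actinomycin D to 448401 in DMSO. The libraries carried the erythroid markers of K562 (10 of 10, with a highest count of at least 405 each), while MS4A1 of B cells and KRT5 of epithelium were at 0 and EPCAM reached 929 to 1116 counts. Values below are counts per 1000000 spike-in counts of the same library unless stated otherwise. The libraries read the poly(A) end, so an mRNA gives tags from its end whatever its length, and levels of different genes were compared as tags. Since the Drosophila spike-in went into RNA after purification, a level is per amount of purified RNA. It carries neither the number of cells nor the RNA per cell, and changes in these cannot be told apart here. Processed pseudogene copies of POLR2C, POLR2D, POLR2K and POLR2L reached at most 1 count in any library. Genes on the opposite strand overlap POLR2B (NOA1), POLR2C (DOK4), POLR2E (ARHGAP45), POLR2I (TBCB) and POLR2L (CD151), and since the use of strand in counting is not given in the sources used here, reads of such pairs cannot be told apart. Of these neighbours TBCB had the highest total counts, up to 3811, with up to 37 labelled. NOA1 had the highest labelled counts, up to 48. Values of POLR2I and labelled values of POLR2B are to be read with that in mind.

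In DMSO the mRNAs of the 10 genes differed widely in level, though the proteins assemble into 1 complex. Among these 10 POLR2E was the most abundant, at 6845 ± 383 (SD, n = 2), followed by POLR2L at 3065 ± 95.8 and POLR2A at 1584 ± 112. No libraries of these neighbours in the order overlapped. Next came POLR2B (1224 ± 165) and POLR2H (1194 ± 143), then POLR2G (1084 ± 37.6), POLR2I (1020 ± 45.9) and POLR2C (964 ± 117). POLR2D (627 ± 73.0) and POLR2K (554 ± 78.1) were lowest. Libraries of POLR2B and POLR2H overlapped, as did those of POLR2H and POLR2G, of POLR2I and POLR2C, and of POLR2D and POLR2K.

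Labelled RNA gave another order. The share of a gene's reads that were labelled, which reflects how much of its pool was made in the label hour, was highest for POLR2K at 7.12% ± 2.03 (SD, n = 2; 81 of 946 and 63 of 1108 reads) and lowest for POLR2E at 0.615% ± 0.0273 (79 of 12462 and 77 of 12934 reads). POLR2K, the least abundant of the 10 mRNAs, and POLR2E, the most abundant, thus stood at opposite ends of this order, and their labelled levels (38.7 ± 5.71 and 42.0 ± 0.484) overlapped. POLR2A was at 1.52% ± 0.0387, below POLR2C (3.11% ± 0.0876), POLR2H (2.83% ± 0.639), POLR2B (2.34% ± 0.401), POLR2D (2.27% ± 0.351) and POLR2G (2.10% ± 0.345), whose neighbours overlapped, and above POLR2L (1.23% ± 0.0766) and POLR2I (0.816% ± 0.399). A share also depends on how many uridines a tag holds, and its part in this order was not tested.

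**Figure D1:**
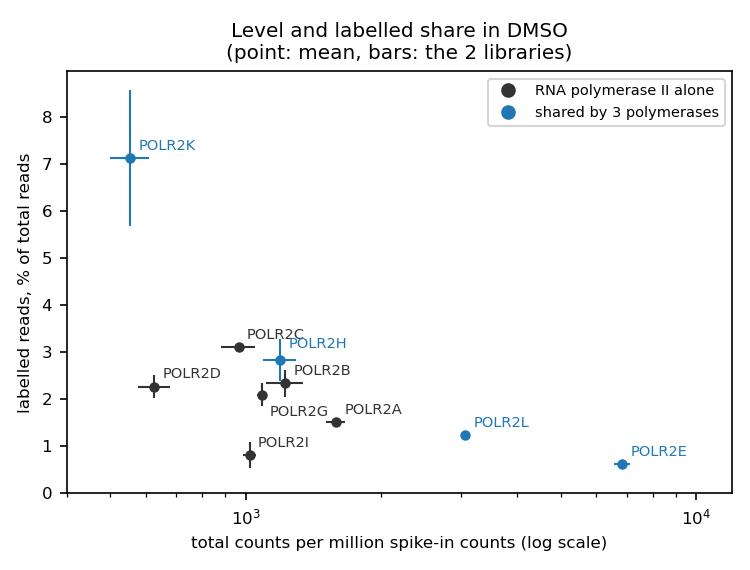
Mean total level in DMSO (horizontal, counts per 1000000 spike-in counts, log scale) against the labelled share of reads (vertical, %) of the 10 subunit genes, with bars spanning the 2 libraries. POLR2K lies at top left (554, 7.12%) and POLR2E at bottom right (6845, 0.615%), and both are among the 4 subunits shared with RNA polymerases I and III (blue).

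JQ1 split the subunit genes. POLR2A, on chromosome 17 from 7484366 to 7514616 (hg38, ENSG00000181222), had 23.2 and 24.8 labelled counts per 1000000 spike-in counts in DMSO and 56.9 and 62.9 with JQ1, from 44, 45, 126 and 133 labelled reads. Both JQ1 libraries lay above both DMSO libraries. POLR2A rose by 1.32 on the log2 scale (SE 0.34, n = 2, edgeR quasi-likelihood adjusted p = 0.0010), or 2.50-fold. It ranked at 61 of the 101 genes that rose, ordered by the size of the rise. Of the 10 subunit genes, 1 rose and 4 fell, and of all 7996 genes tested 1.26% rose and 28.6% fell. The median change of the 10 genes was -0.46, against -0.85 over all genes tested. On TMM scaling, which sets most genes to no change and moved all genes up by a median of 0.86, POLR2A rose by 2.18, POLR2L rose by 1.00 and no subunit gene fell, and over all genes 393 fell and 482 rose.

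Of the 4 subunits shared with the other polymerases 3 fell with JQ1, next to 28.6% of all genes tested. Whether shared subunits differ from the others was not tested. Labelled RNA of POLR2K, a zinc-binding subunit, was 42.7 and 34.7 in DMSO and 9.94 and 16.6 with JQ1 (log2 change -1.55, SE 0.38, n = 2, edgeR adjusted p = 0.00062). POLR2E, which sits in the jaw of the enzyme, had 41.7 and 42.4 in DMSO and 14.0 and 19.9 with JQ1 (log2 change -1.31, SE 0.36, n = 2, edgeR adjusted p = 0.0023). For both genes the groups did not overlap, and the JQ1 means were 34.3% and 40.3% of DMSO. POLR2H, at 35.9 and 30.8 in DMSO and 9.04 and 18.5 with JQ1, fell by 1.28 (SE 0.41, n = 2, edgeR adjusted p = 0.011). Without JQ1 library 1, which was the lower of the JQ1 pair for these 3 genes, POLR2E stood at -1.08 and POLR2H at -0.85 and neither passed, while POLR2K still fell. POLR2H did not pass without DMSO library 1 (-1.16) or DMSO library 2 (-1.38) either. POLR2L, the shared subunit that with POLR2C helps to nucleate assembly, was at 38.5 and 36.9 in DMSO and 41.6 and 41.2 with JQ1, a log2 change of 0.13 (95% interval -0.50 to 0.77) that did not pass. On TMM scaling POLR2E was at -0.45, POLR2H at -0.42 and POLR2K at -0.68, none of which passed.

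**Figure D2:**
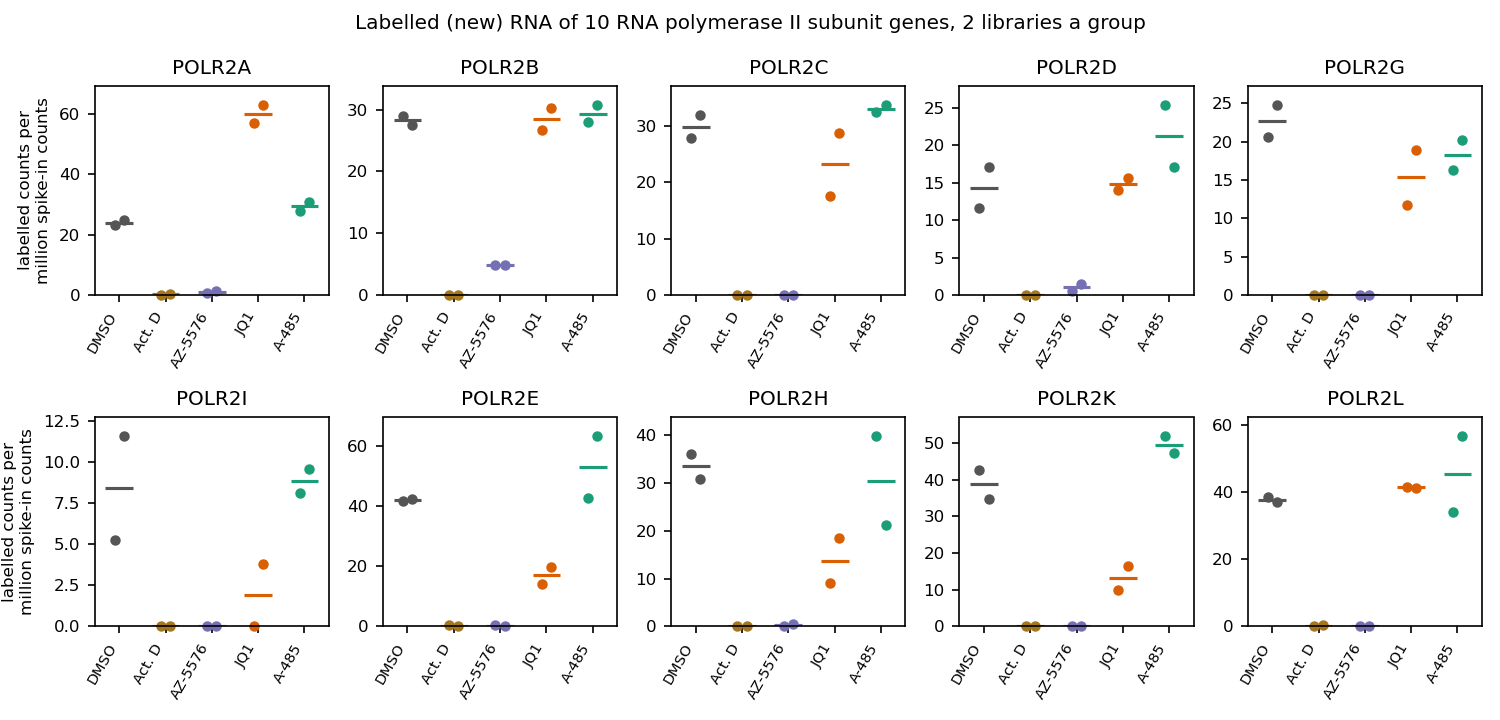
Labelled counts per 1000000 spike-in counts of each subunit gene in the 5 groups; points are the 2 libraries and lines their means, with the 6 genes of RNA polymerase II alone first and the 4 shared ones last. POLR2A reached 56.9 and 62.9 with JQ1 against 23.2 and 24.8 in DMSO, POLR2E and POLR2K went the other way, and every gene was at or near 0 with actinomycin D.

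Among the 6 subunits of RNA polymerase II alone, 1 rose (POLR2A) and 1 fell, next to 1.26% and 28.6% of all genes tested. POLR2I, at the tip of the lobe, fell from 10 and 21 labelled reads to 0 and 8 (log2 change -2.13, SE 0.86, n = 2, edgeR adjusted p = 0.045). These are small counts: the call was lost with DESeq2, without a filter on low counts, without either DMSO library, without JQ1 library 1 and with the replicate number as a block. POLR2B, the catalytic partner of POLR2A, had 55 and 50 labelled reads in DMSO and 59 and 64 with JQ1, a log2 change of 0.01 (95% interval -0.72 to 0.74). POLR2C, which pairs with POLR2B during assembly, stood at -0.37, and the stalk genes POLR2D and POLR2G at 0.05 and -0.56. None of these 4 passed, and their libraries overlapped with DMSO except for POLR2G, whose JQ1 libraries (11.8 and 18.9) lay below both DMSO libraries (20.6 and 24.8).

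The rise of POLR2A against the other 9 genes was then measured without the spike-in. Of the labelled reads of the 10 genes together, POLR2A held 8.40% (44 of 524, 95% Wilson interval 6.31 to 11.1) and 8.77% (45 of 513, 6.62 to 11.5) in DMSO, and 28.3% (126 of 446, 24.3 to 32.6) and 24.5% (133 of 542, 21.1 to 28.3) with JQ1. The intervals of the groups, which cover counting error only, were far apart. With the sum of the other 9 genes as library size, POLR2A rose by 1.93 with JQ1 (SE 0.39, n = 2, edgeR adjusted p = 7.3e-05), a fit in which 2.56% of 7995 genes rose and 5.78% fell. Without DMSO library 1 the rise was 1.90 and did not pass. With POLR2B alone as the reference the rise was 1.31 and also passed. Of the same labelled reads the mean percentage went from 15.0% to 7.35% for POLR2E, from 13.9% to 5.70% for POLR2K and from 10.1% to 12.5% for POLR2B. Summed labelled RNA of the other 9 genes was 253 and 257 in DMSO and 145 and 194 with JQ1, 66.2% of DMSO. Labelled RNA fell broadly with JQ1: on the spike-in scale the median log2 change was -0.56 for these 9 genes and -0.85 over all genes tested. The counting error of the reference genes is not part of these fits.

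**Figure D3:**
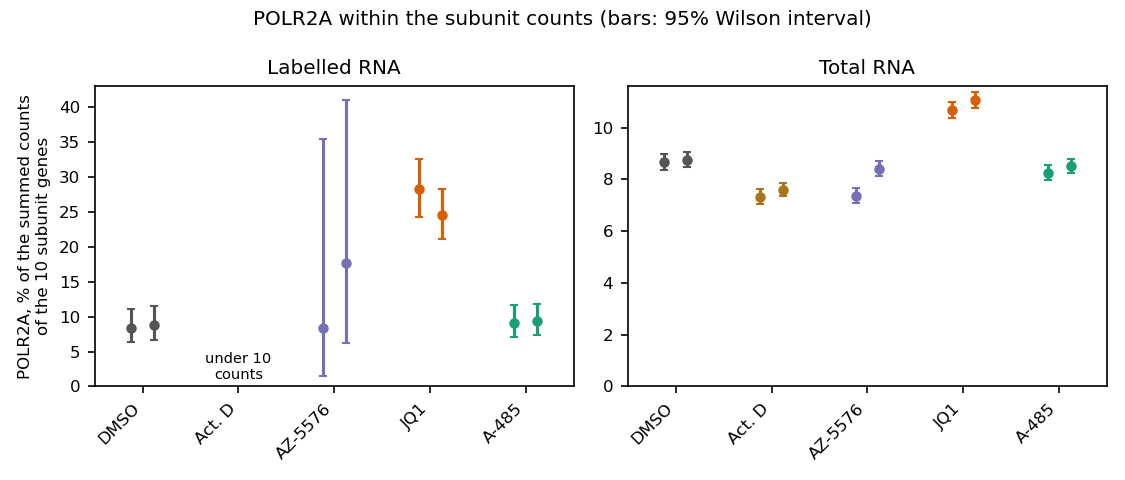
POLR2A as a percentage of the summed counts of the 10 subunit genes in each library, in labelled (left) and total RNA (right), with 95% Wilson intervals that cover counting error only; actinomycin D has under 10 labelled counts and no value at left. JQ1 libraries stand at 28.3% and 24.5% of labelled and 10.7% and 11.1% of total counts, above those of every other group except that the wide AZ-5576 intervals at left, from 12 and 17 counts, overlap them.

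POLR2A also made up more of the mRNA pool of the complex with JQ1. It held 8.68% and 8.76% of total subunit counts in DMSO and 10.7% and 11.1% with JQ1. Relative to the other 9 genes it rose by 0.35 in total RNA (SE 0.08, n = 2, edgeR adjusted p = 0.0063; 0.981% of 14572 genes rose in this fit and 3.25% fell). POLR2E supplies 37.7% of the total subunit counts in DMSO, so this reference leans on it. The call of POLR2A was lost without either DMSO library (0.35 and 0.36) and with POLR2B alone as the reference (0.43).

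A-485 did not give this pattern. Labelled POLR2A was 27.9 and 30.7 with A-485, also above both DMSO libraries. The log2 change was 0.29 (95% interval -0.41 to 0.99, edgeR adjusted p = 0.86). Of the 10 subunit genes 0 fell and 0 rose (edgeR; 0 by unadjusted p below 0.05 and 0 with DESeq2), against 4.86% and 0.163% of all genes, which became 286 lower and 62 higher genes from 389 and 13 on TMM scaling. The changes ran from -0.31 for POLR2G to 0.57 for POLR2D, and the median was 0.20. Intervals of the single genes were wide, from -1.36 to 1.51 for POLR2I, and absence of a call at this depth does not show that a gene kept its level. POLR2A held 9.12% and 9.31% of the labelled subunit counts. Relative to the other 9 genes it stood at 0.11 in labelled RNA (edgeR adjusted p = 0.97; 5.32% of genes fell and 0.0125% rose in this fit) and at -0.06 in total RNA (edgeR adjusted p = 0.93; 1.33% fell and 0.0480% rose).

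JQ1 and A-485 were at the same dose and time, and their difference was tested itself. Labelled POLR2A was 1.03 higher with JQ1 than with A-485 on the log2 scale (SE 0.33, n = 2, edgeR adjusted p = 0.011), and the groups did not overlap. The call was lost without JQ1 library 2 (0.96), without A-485 library 1 (0.96) and without A-485 library 2 (1.10). POLR2K (-1.90), POLR2E (-1.64), POLR2H (-1.14) and POLR2I (-2.21) were lower with JQ1, with edgeR adjusted p of 1.2e-05, 7.1e-05, 0.026 and 0.037. POLR2H was not called without JQ1 library 1 or A-485 library 1, and POLR2I not without JQ1 library 1 or either A-485 library. POLR2I was also not called with DESeq2, and neither gene was called without a filter on low counts. Of all genes 24.8% were lower with JQ1 and 3.14% higher, or 507 and 596 genes on TMM scaling in place of 1984 and 251. On that scaling 2 subunit genes, POLR2E and POLR2K, stayed lower and POLR2A stayed higher. Relative to the other 9 subunit genes POLR2A was 1.82 higher with JQ1 (SE 0.38, n = 2, edgeR adjusted p = 9.2e-05; 7.52% of genes were higher in this fit), and this passed without each library in turn.

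**Figure D4:**
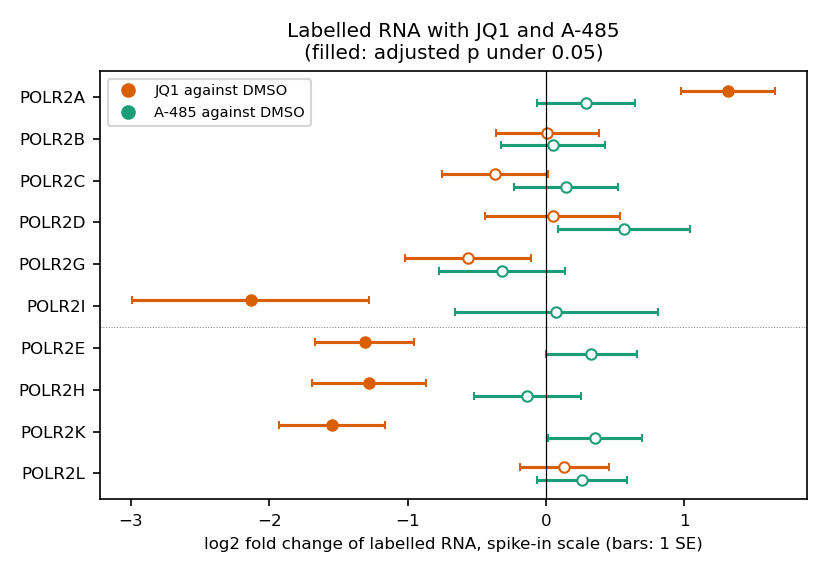
Log2 fold change of labelled RNA on the spike-in scale (horizontal, bars 1 SE) of the 10 subunit genes with JQ1 (orange) and A-485 (green) against DMSO; filled points have an adjusted p under 0.05, and the dotted line divides genes of RNA polymerase II alone (above) from shared ones (below). With JQ1 POLR2A lies at 1.32 and 4 genes at -1.28 to -2.13, 0 of which stay called on TMM scaling, while 0 of 10 were called with A-485.

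AZ-5576 lowered labelled RNA of all 10 genes, as it did for 94.7% of all genes tested, and POLR2B held most of the labelled subunit reads that were left. POLR2B, on chromosome 4 from 56977722 to 57031168, had 55 and 50 labelled reads in DMSO and 9 and 10 with AZ-5576, and on the spike-in scale its mean was 17.3% of DMSO (log2 change -2.52, SE 0.47, n = 2, edgeR adjusted p = 2.1e-07). POLR2A had 1 and 3 reads (-4.46, SE 0.61) and POLR2D 1 and 3 (-3.72, SE 0.73). POLR2C, POLR2G, POLR2I, POLR2K and POLR2L had none. Against a limit of 3 counts over the group, these were at least 38.7-fold, 29.3-fold, 10.8-fold, 50.3-fold and 48.9-fold lower than in DMSO. POLR2E and POLR2H had 1 read each, 163-fold lower (interval 28.9 to 6492) and 130-fold lower (22.9 to 5169) by counting error. POLR2B thus held 19 of the 29 labelled subunit reads left with AZ-5576, against 105 of 1037 in DMSO. It is also the longest of the 10 genes, with 53.4 kb from start to end, next to 30.3 kb for POLR2A, 14.6 kb for POLR2D and 1.64 kb for POLR2I, and the part of gene length was not tested. On TMM scaling, with a median shift of 3.31 per gene, 6 subunit genes were lower (POLR2C, POLR2E, POLR2G, POLR2H, POLR2K and POLR2L), POLR2B stood at 1.04 without passing, and of all calls 81.1% were falls in place of 99.8%. The relative fit put POLR2A at 0.76 against the other 9 (SE 0.93, n = 2, edgeR adjusted p = 0.55; 15.0% of genes were higher and 1.30% lower), and its sign turned with POLR2B alone (-2.00, edgeR adjusted p = 0.014) or the other 5 genes of RNA polymerase II (-0.42) as reference and without AZ-5576 library 2 (-0.05). With AZ-5576 these references hold few reads (9 and 10 for POLR2B), and their counting error is not part of the fits or their p-values.

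With actinomycin D the labelled reads of the subunit genes were gone. The 2 libraries held 1 and 2 labelled reads over the 10 genes, against 524 and 513 in DMSO: 1 for POLR2A, 1 for POLR2E and 1 for POLR2L. All 10 genes fell, as did 99.2% of all genes tested (0 of 10 on TMM scaling, where the labelled libraries of 1410 and 1614 counts set the scale). The genes at 0 reads were at least 11.7-fold (POLR2I) to at least 54.2-fold (POLR2K) lower, an order that follows their DMSO counts. As a share of total reads, 0 labelled reads allow up to 0.0756% for POLR2B and up to 0.170% for POLR2K, against 2.34% and 7.12% measured in DMSO.

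Total RNA showed how much of each pool was left after 2 hours. POLR2K went from 499 and 610 in DMSO to 415 and 427 with actinomycin D, 76.0% of DMSO (log2 change -0.40, SE 0.12, n = 2, edgeR adjusted p = 0.017). POLR2B went from 1108 and 1341 to 1031 and 868, 77.6% of DMSO (log2 change -0.37, SE 0.11, n = 2, edgeR adjusted p = 0.015). The groups of both genes did not overlap. These 2 of 10 genes fell and 0 rose, against 19.7% and 0.336% of all genes, and the median was -0.13 against -0.27 over all genes. Neither call held without DMSO library 2 or without actinomycin D library 2, and that of POLR2K was also lost without actinomycin D library 1. On TMM scaling, with a median shift of 0.25 per gene, no subunit gene fell, POLR2E (0.31), POLR2I (0.33) and POLR2L (0.27) were higher, and 1153 genes fell and 791 rose in place of 2874 and 49. POLR2A stood at -0.27 (1504 and 1663 in DMSO, 1253 and 1368 with actinomycin D; SE 0.11, edgeR adjusted p = 0.068). The abundant mRNAs POLR2E and POLR2L were at 104% and 101% of DMSO.

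With actinomycin D POLR2E supplied 40.6% of the total subunit counts, against 37.7% in DMSO, so the sum of the other 9 genes leans on it. Whether POLR2A fell against other subunit genes depended on the reference. Relative to the sum of the other 9 genes its total RNA fell by 0.24 (SE 0.08, n = 2, edgeR adjusted p = 0.029; 18.0% of genes fell and 0.405% rose). That call was lost without each of the 4 libraries in turn and with the other 5 genes of RNA polymerase II as reference (-0.14), and with POLR2B alone the sign turned (0.10). With AZ-5576 the relative value was -0.16 (edgeR adjusted p = 0.20; 12.8% of genes fell and 0.954% rose).

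**Figure D5:**
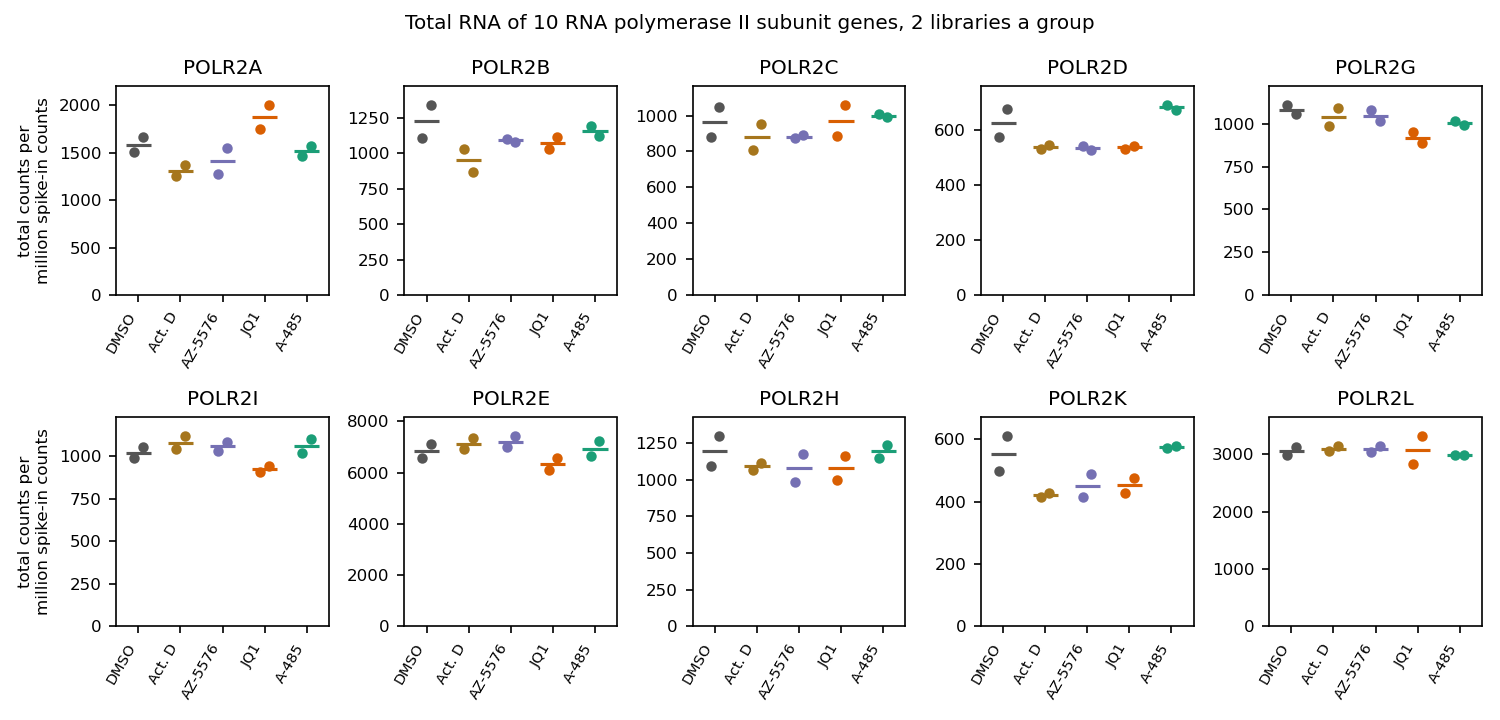
Total counts per 1000000 spike-in counts of each subunit gene in the 5 groups; points are the 2 libraries and lines their means. POLR2K stood at 415 and 427 with actinomycin D against 499 and 610 in DMSO, POLR2A at 1754 and 2002 with JQ1 against 1504 and 1663, and the group means of POLR2E ran from 92.7% to 105% of DMSO.

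With the other drugs no subunit gene was called in total RNA in the main fit. With the replicate number as a block, 1 gene was lower with AZ-5576 (POLR2K, -0.29, edgeR adjusted p = 0.037). With JQ1 that block gave 2 lower genes and 1 higher (POLR2A, 0.24, edgeR adjusted p = 0.022). The values below are those without it. AZ-5576 gave 0 of 10 lower and 0 higher (edgeR; 1 lower by unadjusted p below 0.05, 0 with DESeq2), against 12.9% and 0.782% of all genes, or 1210 and 546 genes on TMM scaling in place of 1878 and 114, where POLR2E was higher by 0.23. The lowest value was that of POLR2K, at -0.29 (416 and 488; SE 0.12, edgeR adjusted p = 0.11). JQ1 gave 0 and 0 (edgeR; 2 lower and 1 higher by unadjusted p below 0.05, 0 with DESeq2), against 7.35% and 0.837%, or 288 and 214 genes on TMM scaling in place of 1071 and 122. POLR2A was at 1754 and 2002 with JQ1, above both DMSO libraries, a log2 change of 0.25 that did not pass (SE 0.11, edgeR adjusted p = 0.15) and that passed on TMM scaling (0.44). A-485 gave 0 and 0 (edgeR; 0 by unadjusted p below 0.05 and 0 with DESeq2), against 1.20% and 0.0343%, with changes from -0.11 to 0.13.

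The differences between drugs in total RNA were also small. JQ1 against A-485 gave 0 subunit genes in either direction (edgeR; 2 lower and 1 higher by unadjusted p below 0.05 and also with the replicate block, 1 lower with DESeq2), against 5.38% lower and 1.20% higher of all genes, or 339 and 278 genes on TMM scaling in place of 784 and 175. POLR2A stood at 0.31 (SE 0.11, edgeR adjusted p = 0.082), POLR2D at -0.35 and POLR2K at -0.35. Relative to the other 9 genes POLR2A was 0.42 higher with JQ1 (SE 0.08, n = 2, edgeR adjusted p = 0.0015; 1.60% of genes were higher and 2.63% lower). That call was lost without A-485 library 1 (0.39) and with POLR2B alone as reference (0.41). AZ-5576 against actinomycin D gave 0 and 0 (edgeR; 0 by unadjusted p below 0.05 and 0 with DESeq2), against 0.371% lower and 2.00% higher of all genes (54 and 292 genes, 76 and 186 on TMM scaling), with POLR2B at 0.20 and POLR2A at 0.11. The doses of those drugs are in different units.

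The labelled share compares new with older reads of the same gene and library and needs no spike-in. For POLR2A it was 1.54% and 1.49% in DMSO, 1.90% and 1.96% with A-485 and 3.25% and 3.14% with JQ1. With JQ1 the ratio of labelled to unlabelled reads rose by 1.10 for POLR2A (SE 0.35, n = 2, edgeR adjusted p = 0.023) and fell for POLR2E (-1.21), POLR2H (-1.19), POLR2I (-2.00) and POLR2K (-1.34), against 0.363% of genes higher and 15.3% lower. The POLR2A share did not overlap between the groups, but its call was lost without each of the 4 libraries in turn (1.07 to 1.12), and the count of 4 lower genes came to between 0 and 3. POLR2K went from 8.56% and 5.69% to 2.31% and 3.47%, and POLR2E from 0.634% and 0.595% to 0.229% and 0.302%. The POLR2A share with A-485 also lay above both DMSO libraries. Of the 10 genes 0 were called with A-485 (edgeR; 0 by unadjusted p below 0.05), against 2.63% lower and 0.0250% higher. AZ-5576 lowered the share of all 10 genes, against 93.3% of all genes lower and 0.0625% higher, and actinomycin D did so too, against 98.3% and 0.0125%.

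Genes that work with the polymerase give the setting for these values. In labelled RNA with JQ1, 10 of 17 measured subunits of RNA polymerases I and III fell and 0 rose, 6 of 16 assembly and C-terminal tail factors fell and 0 rose, 7 of 27 general transcription factors fell and 1 rose (TAF9 of TFIID, named after its values were seen), and 5 of 26 elongation factors fell and 0 rose, next to 28.6% of all genes lower. POLR3D of RNA polymerase III changed by -2.19, NELFA of the pausing complex NELF by -1.72 and SSRP1 of the histone chaperone FACT by -1.70. SCAF8, which binds the C-terminal tail of POLR2A, changed by -3.12 and CTDSP1, a phosphatase of that tail, by -3.56, and GTF2H4 and GTF2H2 of the initiation factor TFIIH changed by -2.51 and -2.18. In total RNA with actinomycin D, 6 of 19 subunits of RNA polymerases I and III, 4 of 17 assembly and tail factors, 11 of 33 general transcription factors and 11 of 28 elongation factors fell and 0 rose, next to 19.7% of all genes lower and 0.336% higher. The genes named from each list were the 2 called ones with the largest change, so their size is fixed by the choice. They were SCAF8 (-1.18), SCAF4 (-1.13), ELL (-1.28), CCNT2 (-1.20), TAF4B (-1.14) and TAF4 (-1.12), and POLR1B (-0.86) and POLR1C (-0.81) of RNA polymerase I. In the order of the lists above the medians were -0.27, -0.25, -0.35 and -0.30, against -0.13 for the 10 subunit genes and -0.27 over all genes. With AZ-5576 5 of 19, 3 of 17, 4 of 33 and 6 of 28 genes of these lists fell and 0 rose, next to 12.9% of all genes lower and 0.782% higher. Among those that fell were POLR1C (-1.26), CCNT1 (-1.24), SCAF8 (-1.13), CCNT2 (-1.11), SCAF4 (-1.08), POLR1B (-0.82), CDK7 (-0.64) and TBP (-0.58).

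Other genes with POLR2 names were mostly too low to place. POLR2J, another subunit of the core, had 92.3 and 127 labelled counts per 1000000 spike-in counts in DMSO and 72.8 and 76.2 with JQ1, and it was not called. Its total level in DMSO was 7846 ± 1065 (SD, n = 2), and its libraries (7093 and 8599) overlapped with those of POLR2E (6574 and 7116). POLR2F, a subunit shared by the 3 polymerases, is listed with 2.98 to 10.7 total counts per 1000000 spike-in counts, a level at which no change can be read.

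The genes whose pattern was most like that of POLR2A were found by the distance over 7 log2 fold changes against DMSO (labelled RNA with AZ-5576, JQ1 and A-485, total RNA with all 4 drugs) among 2067 genes. They were TUBB4B, a beta-tubulin (distance 0.44), CALR, a chaperone of the endoplasmic reticulum (0.72), ACTG1, a cytoplasmic actin (0.94), CIRBP, a cold-inducible RNA-binding protein (0.94), and H3-3B, which encodes a replication-independent histone (0.95). Labelled TUBB4B had 446 and 437 reads in DMSO and 1127 and 1126 with JQ1. The subunit gene nearest to POLR2A was POLR2B, at 448 in this order (distance 2.40), and POLR2K, at 1878, was the farthest of the 6 other subunit genes with enough labelled reads to be placed. The genes compared needed a mean of at least 50 labelled reads in DMSO, a limit not applied to POLR2A itself (44 and 45 reads). With AZ-5576 labelled POLR2A rests on 1 and 3 reads, POLR2E and POLR2H on 1 each, and POLR2C, POLR2K and POLR2L on 0. Fold changes of genes at 0 reads reflect the floor of the fit, so the distances and order of these subunit genes are rough. The comparisons also share the DMSO libraries, so the distances are a description.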

How the data were processed

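The 3 deposited tables hold raw counts per gene, per the file headers: total human reads, human reads with T-to-C conversions and Drosophila reads, in 10 libraries. Per the labels' protocols, RNA was alkylated with iodoacetamide, 5% Drosophila S2 RNA was added to purified RNA, and QuantSeq 3′ mRNA forward libraries were made. The submitters' processing notes name bcl2fastq 2.17.1.14, Trim Galore 0.6.5, bedtools, hg38 and dm6; for the aligner, the conversion caller and strand use, the sources used here give nothing. Symbols were current gene names, with those of GENCODE 29 where none was found. Positions came from GENCODE 29, which matched 55838 of 59204 rows. All columns were used. Labelled, total and share fits came from edgeR 4.0.16 under R 4.3.3, by its robust quasi-likelihood test (two-sided). Library sizes were spike-in totals, the 10 libraries were fitted together, a gene needed 10 counts in 2 or more libraries, and calls had a Benjamini-Hochberg adjusted p under 0.05 across every gene tested (7996 labelled, 14572 total, 7996 share). The share fit compared labelled with unlabelled counts within libraries. The relative fit took the summed counts of the other 9 genes as library size, without actinomycin D in labelled RNA. Wilson intervals and those of log2 changes are 95%, and 0 counts were bounded by 3 counts over the group. Wilson intervals and bounds cover counting error only, as the reads carry no molecular identifiers. An exact permutation of 2 against 2 libraries cannot go below p = 0.333, so single values have none. Common biological variation was 24.8% in labelled, 10.9% in total RNA and 17.9% for the share. The labelled, total and share fits were tested on simulated data for A-485 against DMSO, and the relative fit was not. Alternatives were TMM scaling, spike-in size factors, DESeq2 1.42.0, other filters, a replicate block, other references and each library left out. The named genes are the 10 subunit genes, the 5 genes nearest to POLR2A, and up to 2 called genes per list with the largest change in labelled RNA with JQ1 and in total RNA with actinomycin D and AZ-5576; 1 gene this rule names is not reported here. The genes, lists and tests were chosen with earlier results of these data known.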

Additional observations from a re-analysis of the deposited data

How the results depend on the processing

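The spike-in total sets the direction of many calls: in labelled RNA, TMM scaling left 0 subunit genes lower with actinomycin D, 6 lower with AZ-5576, 0 lower with JQ1 (2 higher) and 2 for JQ1 against A-485, and it turned POLR2B with AZ-5576 (1.04) and POLR2C (0.50) and POLR2G (0.30) with JQ1, none of them called. In total RNA it gave 0 lower and 3 higher with actinomycin D, and 1 higher each with AZ-5576, with JQ1 and for JQ1 against A-485. Spike-in size factors changed no count of subunit genes by over 1.5 times. DESeq2 called 1 subunit gene lower in total RNA for JQ1 against A-485, no filter on low counts left 2 lower in labelled RNA for that comparison, and a minimum of 5 labelled counts left 1 lower in the share with JQ1. Same-numbered libraries did not deviate together in every pair of groups (r from 0.0274 to 0.0751 in labelled RNA, 0 of 3 pairs above 0.1; r from -0.0621 to 0.221 in total RNA, 6 of 10 pairs above 0.1), and the labels give the number no other meaning. With the replicate block POLR2I was not called in labelled RNA with JQ1 (edgeR adjusted p = 0.051), POLR2A was called in total RNA with actinomycin D (-0.27, edgeR adjusted p = 0.0061), with JQ1 (0.24, 0.022) and for JQ1 against A-485 (0.30, 0.0052), and 1 gene was lower in total RNA with AZ-5576, 2 lower and 1 higher with JQ1, 2 lower and 1 higher for JQ1 against A-485, and 2 lower in the share with JQ1. With each library left out in turn, labelled JQ1 against DMSO kept 1 to 4 lower genes, with POLR2B from -0.0841 to 0.0995 and POLR2D from -0.2030 to 0.3499. JQ1 against A-485 kept 2 to 4 lower and 0 or 1 higher in labelled RNA and gave 0 or 1 higher in total RNA. The share with JQ1 kept 0 to 3 lower and 0 higher. Total RNA kept 0 to 2 lower with actinomycin D and 0 or 1 with AZ-5576. POLR2A relative to the other 9 ran over these from 1.79 to 2.06 (labelled, JQ1), -0.0465 to 1.19 (labelled, AZ-5576), -0.27 to -0.21 (total, actinomycin D), 0.32 to 0.38 (total, JQ1) and 0.39 to 0.44 (total, JQ1 against A-485). With POLR2B alone as reference it was -2.00 (labelled, AZ-5576), 0.10 (total, actinomycin D), 0.43 (total, JQ1), 0.0177 (total, A-485) and 0.41 (total, JQ1 against A-485), and with the 5 other genes of RNA polymerase II -0.42 (labelled, AZ-5576) and -0.14 (total, actinomycin D). Apart from what construction fixes (fewer libraries), the cause was not tested. A group with 1 library left was assumed to vary like the others. Labelled reads per subunit gene in DMSO numbered 10 to 81 a library, which limits what can be called.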
